A study of Mus musculus with 6 samples.

Results

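The insulin-like growth factor (IGF) genes described here were 10 mouse genes: the growth factors Igf1 and Igf2, the receptors Igf1r and Igf2r, and the binding proteins Igfbp2, Igfbp3, Igfbp4, Igfbp5, Igfbp6 and Igfbp7. They were found by the gene symbol given to each probe of the array, and every probe of a gene was kept. This gave 10 of 27307 named genes and 19 of 56605 probes. RNA from hearts of male C57BL/6J Clk4-cKO mice was measured with 1 array of 1 dye per animal, in 3 mice that had received AAV NEXN-WT and 3 that had received AAV NEXN-S437E. All 6 mice carried the same deletion: loxP-flanked Clk4 alleles (Clk4 fl/fl) were removed by a tamoxifen-inducible Cre driven by the cardiomyocyte promoter α-MHC (α-MHC-MerCreMer). The groups differed in the nexilin that an AAV9 vector supplied, either wild-type NEXN or the phosphorylation-mimic NEXN-S437E, each under a CMV promoter that is not restricted to cardiomyocytes. The animals' age at sampling is not given in the labels. Neither mice without the deletion nor Clk4-cKO mice without a vector were among the arrays, so each value below compares one nexilin with the other in hearts that lacked Clk4 in cardiomyocytes.

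IGF1 and IGF2 are small secreted proteins related to proinsulin. They signal through the receptor tyrosine kinase IGF1R, which acts on PI3K and Akt and promotes growth and survival of heart muscle cells, whereas IGF2R removes IGF2 from the surroundings and carries lysosomal enzymes tagged with mannose 6-phosphate. The IGF binding proteins hold the growth factors outside cells, prolong their life and limit or direct their access to the receptor, until proteases such as PAPP-A release them. In the heart much of the Igf1 and of the binding protein RNA comes from fibroblasts, endothelial cells and macrophages rather than from cardiomyocytes.

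Igfbp6, the binding protein that prefers IGF2, was lower in the NEXN-S437E hearts and was the only one of the 10 genes that passed a test corrected over all probes. The other 8 genes that could be measured had smaller or more variable differences, and Igfbp2 was not measurable. The probes that carry these results are shown first, since each value is the signal of 1 probe of 60 bases. The first 30 bases of the only Igfbp6 probe, and of the 2 measured Igf1 probes, whose differences had opposite signs, are printed in lower case.

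Igfbp6 probe A_66_P139546: ctgtcacccttgggcctttacacagctagt
Igf1 probe A_51_P147942: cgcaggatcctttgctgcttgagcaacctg
Igf1 probe A_55_P2085979: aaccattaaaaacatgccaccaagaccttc

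The Igfbp6 probe lies at chr15:101979852-101979911 on the plus strand of mm9, the build of the array files. The Igf1 probes lie at chr10:87393516-87393575 and chr10:87378456-87378515, also on the plus strand of mm9, and the array annotation assigns them to different RefSeq transcripts of Igf1 (NM_010512 and NM_184052). Probes were not placed in exons or UTRs.

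Upstream sequence was taken from RefSeq promoters of build GRCm38.p6, whose coordinates cannot be set beside those of the probes. All 10 genes had an entry, with 14 windows in total. The 250 bases before the outermost start are shown for Igfbp6, the gene that fell, and for Igfbp7, a binding protein that did not pass the corrected test. Capitals mark matches, on either strand, to the TATA box (TATAAA), the CCAAT box (CCAAT), the GC box (GGGCGG), an AP-1 site (TGANTCA) or a TEAD site (GGAATG).

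Igfbp6, chr15:102143936-102144185, plus strand: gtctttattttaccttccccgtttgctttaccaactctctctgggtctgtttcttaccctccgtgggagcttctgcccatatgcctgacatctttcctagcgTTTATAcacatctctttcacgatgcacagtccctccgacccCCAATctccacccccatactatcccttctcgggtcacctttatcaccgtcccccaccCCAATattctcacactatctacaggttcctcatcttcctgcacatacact
Igfbp7, chr5:77408046-77408295, minus strand: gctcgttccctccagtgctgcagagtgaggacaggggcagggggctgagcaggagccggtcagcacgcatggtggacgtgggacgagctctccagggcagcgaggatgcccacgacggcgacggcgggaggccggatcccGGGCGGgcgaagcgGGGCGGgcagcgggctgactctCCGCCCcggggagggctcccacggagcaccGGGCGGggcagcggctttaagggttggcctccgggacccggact

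The Igfbp6 window held 2 CCAAT boxes and 1 TATA box in reverse orientation, and 49.6% of its bases were G or C. The Igfbp7 window held 4 GC boxes and 74.0% G or C. Of 32851 RefSeq windows of this length, 33.8% held the CCAAT box, 12.4% the TATA box, 32.7% the GC box, 6.7% the AP-1 letters and 12.6% the TEAD letters, so these matches only describe the windows.

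The arrays held 62976 spots each, of which 41.9% to 47.8% were well above background and 0 were saturated. Levels below are log2 signals relative to the array's own 75th percentile over probes detected on all 6 arrays, so a level of 0 is that percentile and a difference of 1 is 2-fold. Levels of different probes are not comparable with each other. NEXN-WT replicate 1 stood apart from the other arrays of its group: its mean absolute difference over probes was 0.37 and 0.43 on the log2 scale from NEXN-WT replicates 2 and 3, which differed from each other by 0.25, while the 3 NEXN-S437E arrays differed among themselves by 0.19 to 0.29. The measured Clk4 probe read -1.47 to -1.00 in NEXN-WT and -1.46 to -0.99 in NEXN-S437E hearts (difference 0.06, SE 0.18), and whether it lies in the deleted exons was not tested. The 2 Nexn probes differed by -0.06 and 0.06. A probe was tested where a whole group, 3 of 3 arrays, had it well above background. Of the 22998 such probes, 29 were lower and 5 (0.0217%) higher in NEXN-S437E hearts at a limma adjusted p below 0.05.

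Of the 19 probes of the IGF genes, 13 were well above background on all 6 arrays and the other 6 on none, and those 6 are called near background below. The 13 covered 9 of the 10 genes. For each gene the brightest tested probe leads the description. The lead probes of all 9 genes had a lower mean in NEXN-S437E hearts, with a median log2 difference of -0.45 against 0.01 over all tested probes, except that Igf2 turned to 0.05 with quantile normalization, the percentile over all probes, normexp background correction or the deposited normalized values. For 6 of the 9 lead probes the groups did not overlap, in each case with NEXN-S437E lower, which was the case for 12.4% of all tested probes. Of the 9, 1 (Igfbp6) passed an adjusted p of 0.05, against 0.126% of all tested probes in that direction. Igfbp6 was also the only one past the second rule, a 2-fold change with an unadjusted p below 0.05, which 2.03% of all tested probes passed as lower and 0.530% as higher. At an unadjusted p below 0.05 alone there were 6 of the 9, all lower (3 to 6 over the alternative analyses, and under 6 in most), where 8.54% of all tested probes were lower and 7.89% higher. In whole hearts, fewer cells of a type and less RNA per cell cannot be told apart.

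**Figure D1:**
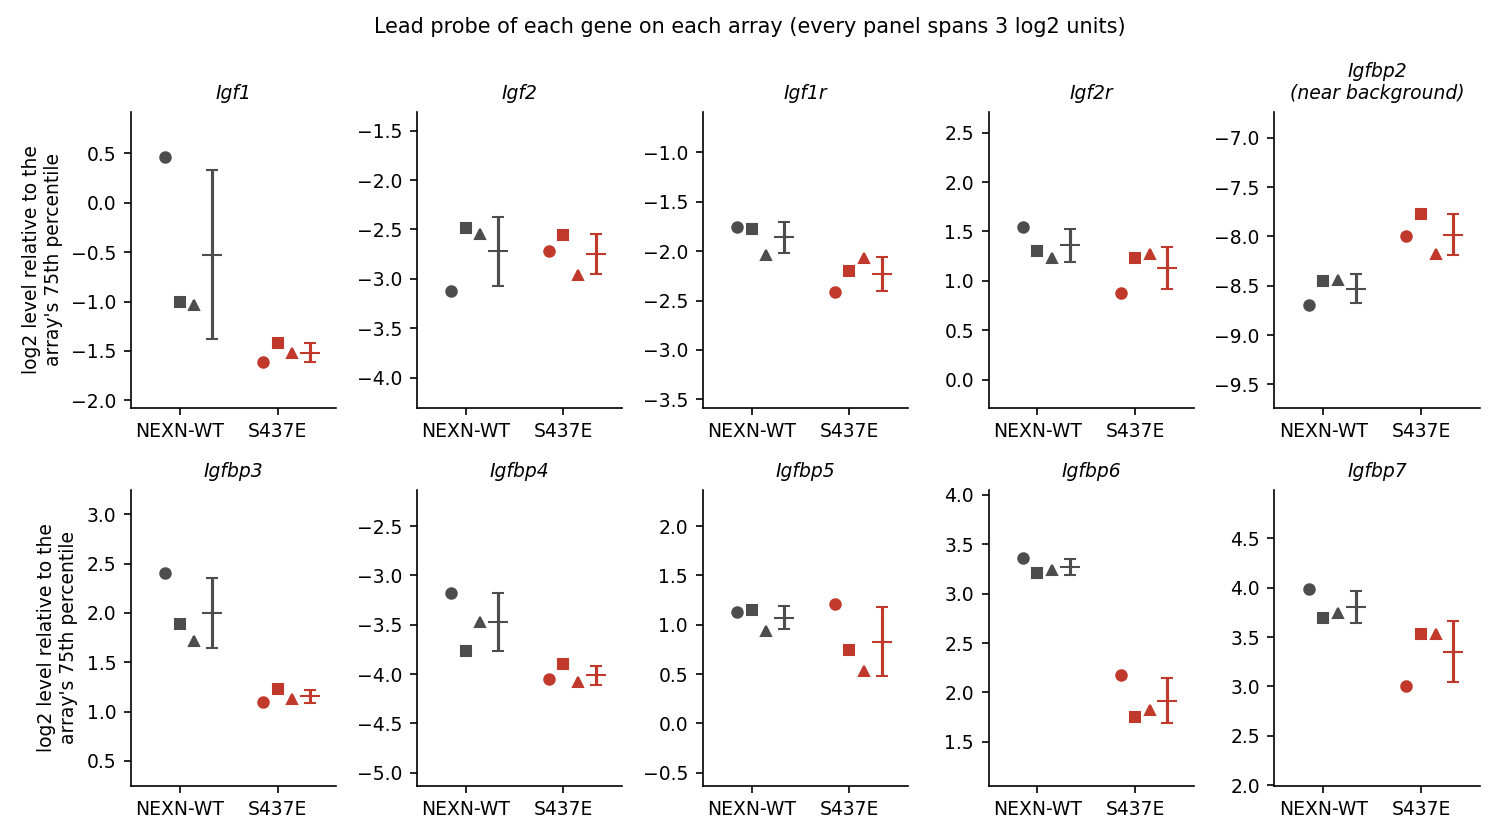
Log2 level of the lead probe of each IGF gene on each array, relative to the array's 75th percentile over detected probes, in its own panel of equal span. Circles, squares and triangles are replicates 1, 2 and 3, and the bars give the mean ± SD (n = 3 mice per group). Igfbp6 levels sit between 3.21 and 3.36 on the NEXN-WT arrays and between 1.75 and 2.18 on the NEXN-S437E arrays, and Igf1 has 1 high NEXN-WT array at 0.46.

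Igfbp6 read 3.36, 3.21 and 3.24 in NEXN-WT hearts and 2.18, 1.75 and 1.82 in NEXN-S437E hearts. The groups were separated by far more than the range within either of them, and the high array NEXN-WT replicate 1 was close to its group here. The means were 3.27 ± 0.08 and 1.92 ± 0.23 (SD, n = 3 each). Igfbp6 fell by 1.35 on the log2 scale (SE 0.16, 95% confidence interval -1.72 to -0.99), which left 39.1% of the NEXN-WT level, a 2.56-fold decrease (limma adjusted p = 0.036). Before scaling between arrays, the processed signals were 15645, 9710 and 8890 in NEXN-WT and 3138, 3326 and 3096 in NEXN-S437E hearts. The groups were thus apart without the scaling too, though the order within NEXN-S437E differed. These signals also hold the brightness of the arrays. The 75th percentile signal over detected probes was 1519, 1049 and 944 in NEXN-WT and 692, 991 and 876 in NEXN-S437E hearts. By p, Igfbp6 was at rank 26 of the 22998 tested probes, and at rank 276 by the size of the decrease.

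The 2-fold call for Igfbp6 held in all 18 alternative analyses, with log2 differences of -1.49 to -1.09, but its adjusted p ranged from 0.00218 to 0.261 and was below 0.05 in 9 of them. With single arrays left out, the adjusted p was 0.0421, 0.122 and 0.0763 without NEXN-WT replicates 1, 2 and 3, and 0.0578, 0.177 and 0.181 without NEXN-S437E replicates 1, 2 and 3. Slide row 1 held NEXN-S437E replicate 1 beside all NEXN-WT arrays, and the difference within that row was -1.09 (limma adjusted p = 0.164 with slide row as a block). Row 2 held NEXN-S437E arrays alone, so a value with slide row as a block compares only NEXN-S437E replicate 1 with the NEXN-WT arrays.

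Ratios between probes of the same array do not depend on a scaling factor that is common to the array, though they can move with quantile normalization, so Igfbp6 was also set against each of the other 8 measured IGF genes within each array. The log2 ratio of Igfbp6 to Igf2, its preferred ligand, was 6.49, 5.70 and 5.79 in NEXN-WT and 4.90, 4.30 and 4.78 in NEXN-S437E hearts, a difference of -1.33. The groups did not overlap for Igf2, and the same held for Igf1r (-0.98), Igf2r (-1.12), Igfbp4 (-0.82), Igfbp5 (-1.11) and Igfbp7 (-0.90), in 6 of 8 ratios in all. The ratios to Igf1 (-0.36) and to Igfbp3 (-0.51) overlapped between the groups, in each case through NEXN-WT replicate 1 alone. Its ratio to Igf1 was 2.91, with 4.21 and 4.28 on the other NEXN-WT arrays and 3.16 to 3.80 on the NEXN-S437E arrays. To Igfbp3 it was 0.97, with 1.32 and 1.52 on the other NEXN-WT arrays and 0.51 to 1.08 on the NEXN-S437E arrays. These ratios share Igfbp6, the IGF gene with the largest decrease of the lead probes, so they describe that decrease on another scale and no p is given for them.

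**Figure D2:**
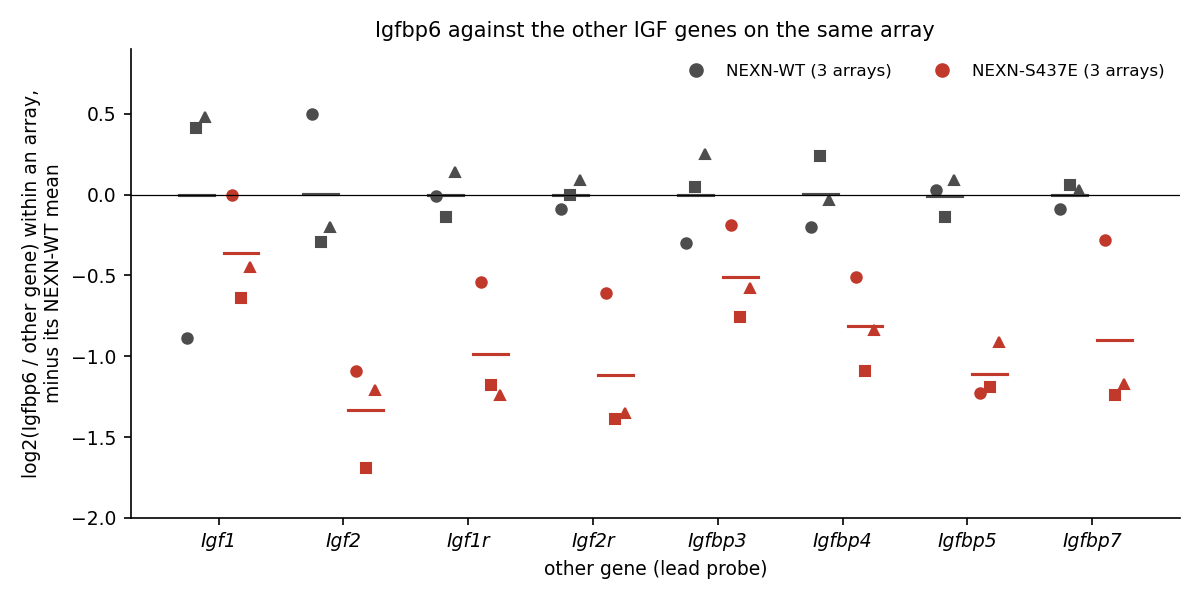
Log2 ratio of Igfbp6 to each other IGF gene on the same array, minus the NEXN-WT mean of that ratio. Points are arrays (circles, squares and triangles are replicates 1, 2 and 3) and lines are group means (n = 3). The NEXN-S437E arrays lie below every NEXN-WT array for 6 of the 8 genes. They overlap the NEXN-WT arrays for Igf1 and Igfbp3, in each case through NEXN-WT replicate 1 alone.

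Igfbp3 binds both growth factors and carries most of them in the circulation, in a complex with the acid-labile subunit. Its lead probe (A_55_P2803213, chr11:7106193-7106252, minus strand, mm9) read 2.40, 1.89 and 1.72 in NEXN-WT hearts and 1.10, 1.23 and 1.13 in NEXN-S437E hearts. No NEXN-S437E heart reached the lowest NEXN-WT heart. The log2 difference was -0.85 (SE 0.19, interval -1.30 to -0.40) and did not pass the correction (limma adjusted p = 0.149). The adjusted p passed the threshold in 1 of 18 alternatives, with estimated array weights (-0.73, limma adjusted p = 0.0145). With those weights 2098 of the 22998 tested probes passed, against 34 without them. Without NEXN-WT replicate 1 the Igfbp3 difference was -0.65. A second Igfbp3 probe (A_55_P1992715) was near background throughout.

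The 2 measured Igf1 probes did not move together. The brighter probe (A_51_P147942) read 0.46, -1.00 and -1.04 in NEXN-WT and -1.61, -1.42 and -1.52 in NEXN-S437E hearts. All 3 NEXN-WT hearts were above all NEXN-S437E hearts, with 1 of them, NEXN-WT replicate 1, well above the rest. The log2 difference was -0.99 (SE 0.38, interval -1.89 to -0.09, limma adjusted p = 0.271) and was -0.50 (SE 0.12, limma adjusted p = 0.190) without that array, so much of it rested on 1 heart. Without NEXN-WT replicate 2 or 3 the difference was -1.23 or -1.25, past the 2-fold rule. The dimmer probe (A_55_P2085979) read -2.91, -2.91 and -2.92 in NEXN-WT and -2.91, -2.66 and -2.71 in NEXN-S437E hearts, a difference of 0.15 (SE 0.13, limma adjusted p = 0.570). Its groups overlapped on this scale, though with the deposited normalized values or the percentile over all probes they did not (0.23 with each).

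Within an array, the brighter Igf1 probe exceeded the dimmer one by 3.36, 1.91 and 1.88 log2 units in NEXN-WT and by 1.29, 1.24 and 1.19 in NEXN-S437E hearts. The groups of this within-array value were apart by -1.14, for 2 probes that are annotated to different transcripts, and since the pair was described because its probes moved apart, no p is given. NEXN-WT replicate 1 carried much of this difference, which was -0.65 without it. Another Igf1 probe (A_52_P306327) was near background throughout.

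Igf2, the other growth factor, is highly expressed before birth and low in the adult rodent heart. Its lead probe (A_51_P516833, chr7:149837115-149837174, minus strand, mm9) read -3.12, -2.49 and -2.55 in NEXN-WT and -2.72, -2.56 and -2.96 in NEXN-S437E hearts. The ranges overlapped nearly fully, with a difference of -0.03 (SE 0.21, interval -0.51 to 0.46, limma adjusted p = 0.957). With NEXN-WT replicate 1 left out, however, Igf2 differed by -0.23 and its groups no longer overlapped (limma adjusted p = 0.574). A 2-fold change in either direction lies outside that interval, and the difference was -0.28 with array weights. The second Igf2 probe (A_55_P2118173) also overlapped (0.19, SE 0.21, limma adjusted p = 0.655), and its difference shrank to 0.04 when NEXN-WT replicate 1 was left out and to 0.05 when NEXN-S437E replicate 1 was.

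Igf1r encodes the signalling receptor. Its lead probe (A_55_P2736764, chr7:75371371-75371430, plus strand, mm9) read -1.76, -1.78 and -2.04 in NEXN-WT and -2.41, -2.20 and -2.07 in NEXN-S437E hearts. The nearest arrays of the groups, at -2.04 and -2.07, were almost level, and the difference of -0.37 (SE 0.15, interval -0.73 to -0.01) did not pass the correction (limma adjusted p = 0.293). A neighbouring probe (A_51_P318365) overlapped between groups (-0.25, SE 0.18, limma adjusted p = 0.501), but not without NEXN-S437E replicate 1 (-0.41, limma adjusted p = 0.334). The other 2 Igf1r probes were near background throughout. Igf2r, the clearance receptor, read 1.55, 1.30 and 1.23 against 0.88, 1.23 and 1.27 (A_51_P125467, chr17, minus strand, mm9). Its groups overlapped, with NEXN-S437E replicate 1 alone below the others (-0.23, SE 0.16, interval -0.62 to 0.15, limma adjusted p = 0.487). The Igf2r difference was -0.11 without that array, -0.14 without NEXN-WT replicate 1, -0.08 with array weights and -0.48 with slide row as a block.

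**Figure D3:**
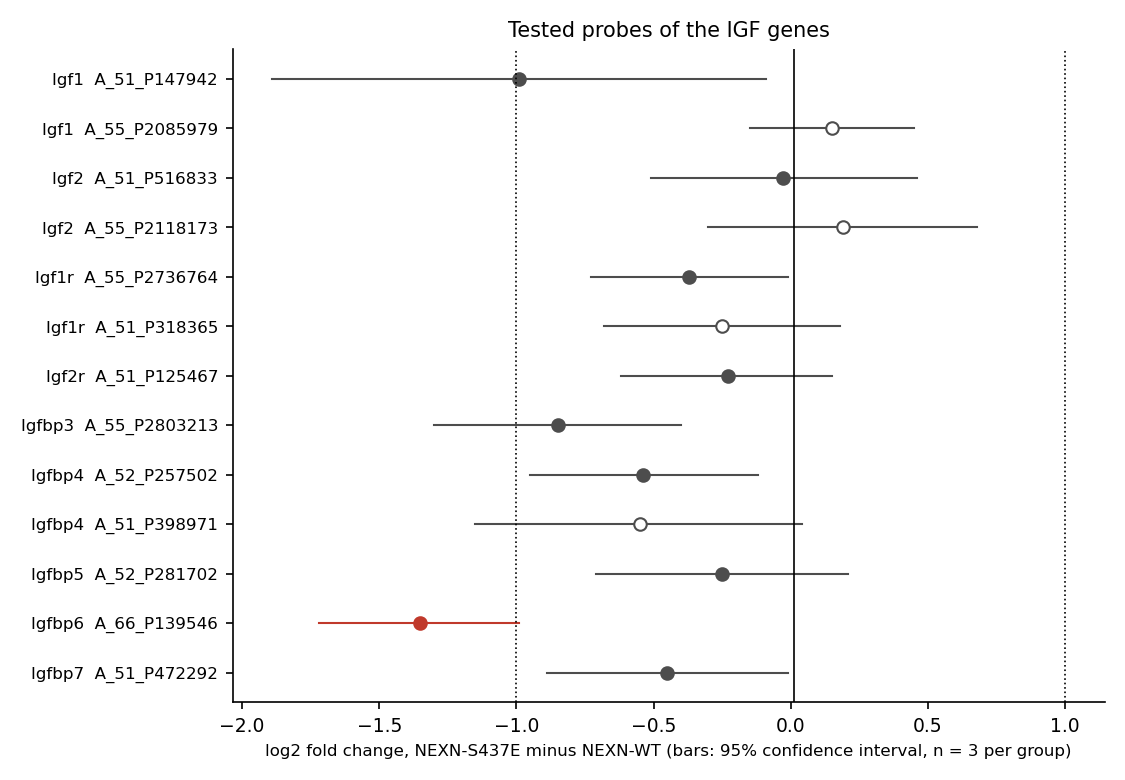
Log2 fold change (NEXN-S437E minus NEXN-WT) of the 13 tested probes of the IGF genes, with 95% confidence intervals from limma (n = 3 mice per group). Filled points are lead probes, open points other probes, red marks an adjusted p below 0.05, the solid line is the median of all tested probes (0.01) and dotted lines mark 2-fold. Igfbp6 alone is red at -1.35, the 2 Igf1 probes lie on opposite sides of 0, and Igf2 at -0.03 turned to 0.05 with other scalings.

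Igfbp4 limits IGF action until PAPP-A cleaves it. Its lead probe (A_52_P257502, chr11:98913334-98913393, plus strand, mm9) read -3.18, -3.77 and -3.47 in NEXN-WT and -4.05, -3.90 and -4.08 in NEXN-S437E hearts. Every NEXN-S437E heart was below every NEXN-WT heart, and the difference of -0.54 (SE 0.18, interval -0.95 to -0.12) did not pass the correction (limma adjusted p = 0.224). It was -0.12 with normexp background correction and -0.34 with array weights. The second probe (A_51_P398971, chr11:98909591-98909650) differed by a similar amount (-0.55, SE 0.25, limma adjusted p = 0.330), but its groups overlapped and the difference was -0.30 without NEXN-WT replicate 1.

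Igfbp7, which binds IGFs weakly and is made by endothelial cells among others, read 3.99, 3.69 and 3.74 in NEXN-WT and 3.00, 3.53 and 3.53 in NEXN-S437E hearts (A_51_P472292, chr5:77778355-77778414, minus strand, mm9). NEXN-S437E replicate 1 was the lowest, and the groups did not overlap. The difference was -0.45 (SE 0.19, interval -0.89 to -0.01, limma adjusted p = 0.293), and became -0.28 without that array, -0.24 with array weights and -0.80 with slide row as a block. Igfbp5, which binds to extracellular matrix as well as to IGFs, read 1.13, 1.15 and 0.94 against 1.21, 0.74 and 0.53 (A_52_P281702, chr1:72904829-72904888, minus strand, mm9). Its highest array was a NEXN-S437E heart, and the difference of -0.25 (SE 0.20, interval -0.71 to 0.21, limma adjusted p = 0.533) turned to 0.14 within slide row 1. It was -0.44 without NEXN-S437E replicate 1, that highest array, -0.10 without NEXN-S437E replicate 3, -0.46 with array weights (limma adjusted p = 0.0872) and -0.17 with the percentile over all probes.

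Igfbp2, another IGF binding protein, has 1 probe (A_55_P2056729, chr1:72898677-72898736, plus strand, mm9). It read between -8.70 and -7.77 over the 6 arrays and was not well above background on any of them, where the dimmest probes well above background read -6.48 to -5.73. No fold change is given for it.

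The wider IGF axis was described with 73 further genes chosen by role, of which 60 were tested. In NEXN-S437E hearts 35 of them had a lower and 25 a higher mean, with a median log2 difference of -0.09 (-0.06 without NEXN-WT replicate 1) against 0.01 over all tested probes. One gene, Pappa, passed the 2-fold rule (1 lower and 0 higher, where 2.03% of all tested probes passed as lower), and 0 passed an adjusted p of 0.05 by limma, with 7 at an unadjusted p below 0.05 (6 lower, 1 higher, where 8.54% and 7.89% of all tested probes were). The groups did not overlap for 10 lower and 4 higher genes of 60, where 12.4% and 14.4% of all tested probes did so.

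Of 18 partners, proteases and further binding proteins, 11 were tested, 8 lower and 3 higher in mean, with a median of -0.37 (-0.15 without NEXN-WT replicate 1). Pappa, the protease that cleaves IGFBP4, read -3.19, -3.75 and -5.00 in NEXN-WT and -5.13, -5.45 and -5.54 in NEXN-S437E hearts. The NEXN-WT hearts were spread widely, and the lowest of them, at -5.00, was close to the highest NEXN-S437E heart, at -5.13. Pappa was lower by the 2-fold rule (log2 difference -1.39, SE 0.42, limma adjusted p = 0.205), which it did not pass with normexp background correction, the methods' t-test or slide row as a block. Without NEXN-WT replicate 1 its difference was -1.00 (SE 0.36, limma adjusted p = 0.332).

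Htra3, a secreted serine protease that can cleave IGF binding proteins, read 4.62, 4.29 and 4.15 in NEXN-WT and 3.67, 3.33 and 3.40 in NEXN-S437E hearts. The groups did not overlap, and the difference of -0.88 (SE 0.17) had a limma adjusted p of 0.132. Lrp1, a scavenger receptor that also binds IGFBP3, read 2.21, 1.16 and 1.02 against 0.57, 0.40 and 0.60 (-0.94, SE 0.30, limma adjusted p = 0.219), and -0.57 without NEXN-WT replicate 1. Esm1, an endothelial proteoglycan with an IGF binding protein-like domain, also did not overlap (-0.63, limma adjusted p = 0.184). In contrast to Htra3, the related protease Htra1 had a difference of 0.20 (SE 0.17, limma adjusted p = 0.551) with overlapping groups. Igfbp1 and Igfals, the acid-labile subunit, were not tested because too few arrays had them well above background.

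Of the growth hormone axis, which drives Igf1 transcription in liver and other tissues, 6 of 6 genes were tested with a median of 0.04 (-0.01 without NEXN-WT replicate 1), and the groups overlapped for each, the receptor Ghr among them at its lead probe (0.14, SE 0.14). Of the other Ghr probes, 1 did not overlap and was higher (0.38, SE 0.15, limma adjusted p = 0.275). Of 12 insulin receptor family members and adaptors, 10 were tested with a median of -0.07. Insr, the insulin receptor, overlapped between groups (0.20, SE 0.22). Groups did not overlap for the adaptors Shc1 (-0.39, SE 0.16) and Sos1 (-0.49, SE 0.18), which were lower, nor for the insulin receptor inhibitor Grb14 (0.37, SE 0.20), which was higher, with limma adjusted p-values of 0.289, 0.251 and 0.391. NEXN-WT replicate 1 stood apart for Grb14 (1.10, with 1.72 and 1.81 on the other NEXN-WT arrays) and for Shc1 (0.05, with -0.36 and -0.40).

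Of the PI3K-Akt-mTOR arm, through which IGF1R acts, 22 of 23 genes were tested, 13 lower and 9 higher in mean, with a median of -0.09 (11 lower and a median of 0 without NEXN-WT replicate 1). None of their lead probes passed either rule (0 at a limma adjusted p below 0.05 and 1, Tsc2, at an unadjusted one). Tsc2, a brake on mTOR, read 1.47, 1.86 and 1.55 in NEXN-WT and 2.01, 1.98 and 1.96 in NEXN-S437E hearts (0.36, SE 0.15, limma adjusted p = 0.290). Probes of Rictor, a subunit of mTOR complex 2, disagreed: its lead probe differed by -0.09 (SE 0.26, limma adjusted p = 0.880), and another (A_51_P218948) by -0.78 with no overlap (SE 0.17, limma adjusted p = 0.144). Foxo1, a transcription factor that Akt holds out of the nucleus, had a difference of -0.28 (SE 0.14, limma adjusted p = 0.350). Of the Igf2 locus and mRNA control list, 4 of 7 genes were tested with a median of -0.07 (-0.14 without NEXN-WT replicate 1), and the imprinted neighbour H19 varied from 0.73 to 2.06 over the NEXN-S437E hearts alone (-0.18, SE 0.33). Of the mannose 6-phosphate sorting list, 7 of 7 were tested with a median of -0.06, and M6pr, the second receptor of this kind, differed by -0.06 (SE 0.15).

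**Figure D4:**
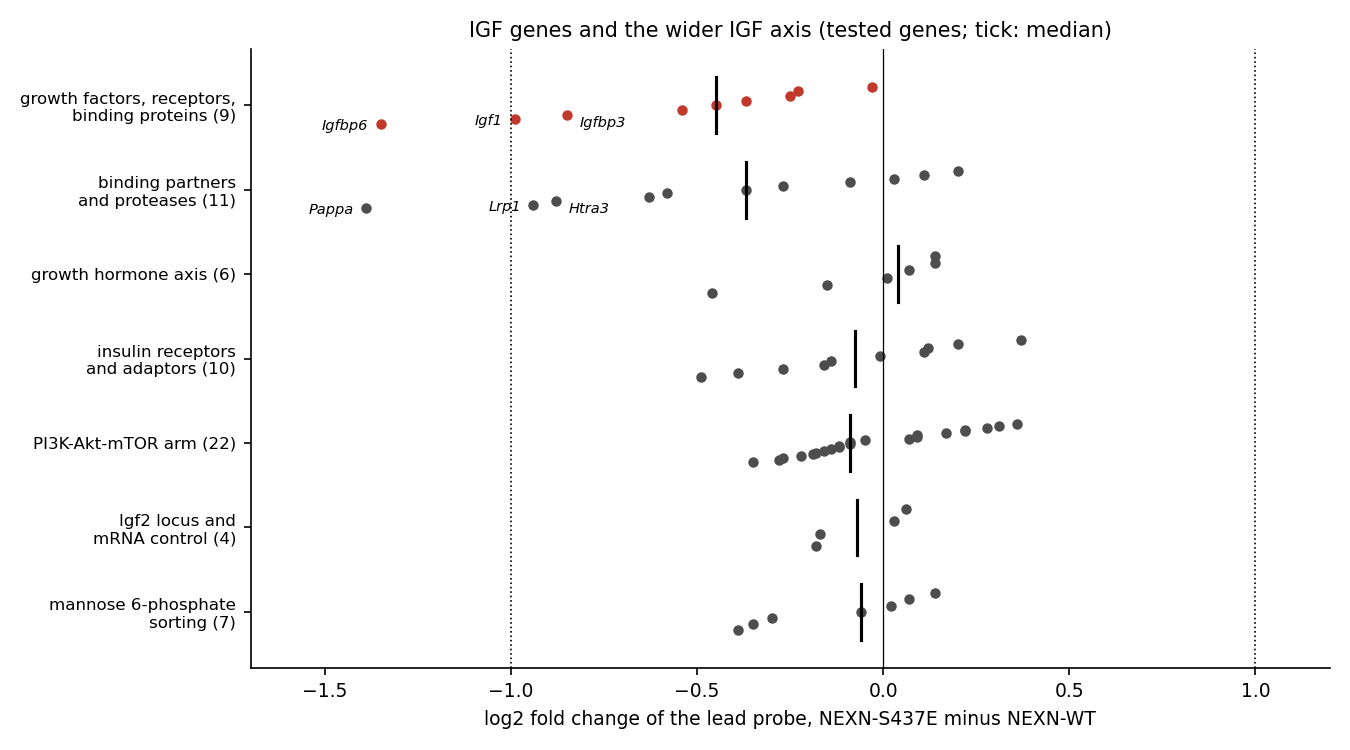
Log2 fold change (NEXN-S437E minus NEXN-WT) of the lead probe of each tested gene, for the 9 measured IGF genes (red) and the 60 genes of the wider axis (grey) by role, with the number of genes in parentheses and the median as a tick. Dotted lines mark 2-fold. Igfbp6 and Pappa lie past -1, the medians of the first 2 groups are -0.45 and -0.37 (the second -0.15 without NEXN-WT replicate 1), and those of the other lists lie between -0.09 and 0.04. Igf2, the rightmost red point, turned to 0.05 with other scalings.

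Among the genes whose lead probes followed Igfbp6 most closely over the 6 arrays were Slc9a7, a sodium-proton exchanger of the Golgi (Pearson r = 0.999), and Nppa, the atrial natriuretic peptide (r = 0.997). They were picked from 12936 genes, of which 143 had an r above 0.95, and all 6 points share the difference between the groups. Nppa read 6.29, 5.99 and 6.16 in NEXN-WT and 4.91, 4.47 and 4.65 in NEXN-S437E hearts, a difference of -1.47 (SE 0.16, limma adjusted p = 0.0303).

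Markers of cell types that can make IGF binding proteins were described beside them. All 8 tested fibroblast markers had a lower mean in NEXN-S437E hearts, 3 of 8 passed the 2-fold rule (Col1a1 at -1.90, Col3a1 at -1.42 and Pi16 at -1.18), and the median was -0.90 (-0.63 without NEXN-WT replicate 1). The log2 of their summed linear levels, called a summed level here, ranged from 6.65 to 7.25 in NEXN-WT and from 6.19 to 6.31 in NEXN-S437E hearts. Such a value is weighted to the brightest probe, which was that of Dcn. Of 8 activated fibroblast markers 7 were tested, all lower in mean. Of the 6 that were well above background on every array, 4 passed the 2-fold rule (Postn at -3.06, Comp at -4.19, Cilp at -3.88 and Meox1 at -1.58) and the median was -2.32 (-1.62 without NEXN-WT replicate 1). Cthrc1, the remaining one, was well above background on 1 of 3 NEXN-S437E arrays and is given no fold. The 6 measured markers had summed levels of 4.13 to 5.30 against 3.19 to 3.97. In NEXN-S437E hearts this sum was mostly the signal of Acta2 (2.91 to 3.80). Acta2 (-0.04, SE 0.30) and Fap (-0.47, SE 0.27) overlapped between groups. The general fibroblast gene Dcn, however, overlapped between groups (-0.16, SE 0.13).

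Endothelial markers had a median of -0.04 over 8 tested genes, 5 lower and 3 higher in mean, with summed levels of 5.86 to 6.08 in NEXN-WT and 6.17 to 6.23 in NEXN-S437E hearts. The sum is weighted to the brightest probe, that of Fabp4, a fatty acid binding protein, which read 4.98 to 5.16 and 5.36 to 5.53 (0.41, SE 0.13, limma adjusted p = 0.214), while Tek, the angiopoietin receptor, was apart in the other direction (-0.24, SE 0.14, limma adjusted p = 0.406). Without NEXN-WT replicate 1 the endothelial median was -0.13, with 6 lower. Macrophage markers had a median of -0.08 over 8 genes, 6 of them lower, and of -0.02 with 4 of 8 lower without NEXN-WT replicate 1. Single macrophage markers went both ways: Lyve1 was 0.75 higher with no overlap (limma adjusted p = 0.132), and Cx3cr1 (-0.73) and Adgre1 (-0.55) overlapped between groups. Smooth muscle and pericyte markers had a median of -0.19 over 8. Of 6 T cell markers, 4 were well above background on every array, all lower in mean with a median of -1.95, and 3 of these 4 passed the 2-fold rule (Cd3d at -2.56, Cd2 at -1.75 and Lck at -2.14). Cd3g and Cd5 cleared background on no NEXN-S437E array, which leaves bounds: set against the dimmest signal above background of each array, Cd3g was at least 2.30-fold lower and Cd5 at least 1.73-fold lower. The summed level of the 4 measured T cell markers ranged from -1.31 to -0.78 in NEXN-WT and from -2.84 to -2.41 in NEXN-S437E hearts. Cardiomyocyte markers, which define the labelled tissue, were present on every array and had a median of 0.34 over 8 tested genes, all with a higher mean (7 of 8 without NEXN-WT replicate 1), 0 past the 2-fold rule, with summed levels of 8.24 to 8.50 against 8.70 to 8.76. Of the atrial cardiomyocyte and B cell markers, 1 of 4 was tested in each list, and both did not overlap: Myl4 differed by -0.70 (SE 0.24, limma adjusted p = 0.231) and Cd79b by -0.69 (SE 0.19, limma adjusted p = 0.186).

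Erythrocyte markers and the neutrophil genes S100a8 and S100a9 set NEXN-S437E replicate 1 apart. The neutrophil gene Csf3r did so little (2.61, against 2.20 to 2.57 on the other arrays). The mesothelial gene Msln was also highest there (-2.20, against -3.95 to -3.30). NEXN-S437E replicate 1 was the dimmest array as well, with a 75th percentile signal of 692 and 41.9% of spots well above background. The haemoglobin gene Hba-a1 read 2.80, 3.21 and 4.16 in NEXN-WT and 5.66, 2.19 and 2.96 in NEXN-S437E hearts. The neutrophil gene S100a9 read -2.85, -2.92 and -1.89 against -0.80, -3.47 and -3.12. Over the lists, 3 of 3 erythrocyte markers were tested with a median of 0.21, and 3 of 4 neutrophil markers with a median of 0.09, each overlapping between groups. This array is also the one that was lowest for Igfbp7 and Igf2r and highest for Igfbp5, whose differences without it were -0.28, -0.11 and -0.44. The part of these marker differences in the Igfbp6, Igfbp7, Igf2r, Igfbp5, Igfbp3 and Igf1 differences was not tested.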

How the data were processed

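Total RNA of 6 hearts was labelled with Cy3 and hybridised to Agilent SurePrint G3 mouse arrays (v2, 8x60K), all on 1 slide and read in 1 scan. Per the file headers, the authors extracted the intensities with Feature Extraction 10.7.1.1, which subtracts background and removes trends within an array. The deposited intensities are linear and not normalized between arrays. The authors also deposited a table of the same signals (99.8% equalled the spot mean, tolerance 0.001 of the value) and of normalized log2 values. Once sorted, the 6 log2 columns are identical, and the normalization method is not given in the sources used here.

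Outlier-marked and control spots were dropped, spots of a probe were averaged, and the 75th percentile over the 21099 probes well above background on all 6 arrays was subtracted on the log2 scale, since under 50% of spots were detected. Probes that a whole group had well above background, on 3 of 3 arrays (22998 probes, 13747 genes), were compared with limma 3.58.1 (lmFit, eBayes; R 4.3.3), files being read by data.table (1.17.8), and p-values were adjusted by Benjamini-Hochberg over all of them. Calls used an adjusted p of 0.05 or, after the study, 2-fold at an unadjusted p of 0.05. Each sample is 1 mouse, and with intensities the number of arrays limits the precision. All IGF genes were named, with, from the other lists, genes past the 2-fold rule or needed by role, and the 3 genes most correlated with Igfbp6, of which 1 is not reported here. The genes and lists were chosen with earlier results of these data known. On simulated data with 200 of 22987 probes changed by 2 on the log2 scale, the fit recovered 173 at the adjusted p and 198 by the 2-fold rule, with 6 and 69 false calls. Sequences and windows were handled with Python 3.11.15, pandas 2.3.3 and numpy 2.4.6, figures with matplotlib 3.10.9. Alternatives were other scalings, background corrections, filters, tests, blocks and each array left out.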

Additional observations from a re-analysis of the deposited data

How the results depend on the processing

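Every alternative changed 1 choice of the analysis, 18 for each result plus 1 for the 2-fold count of IGF genes (any probe of a gene, which also gave 1), and precision was limited by 3 arrays per group and by signal over background. All 9 lead probes apart from Igf2 and Igfbp5 kept their direction in all 18. Igf2 turned to 0.05 with quantile normalization, the percentile over all probes, normexp or the deposited values, to 0 with slide row as a block and to -0.28 with array weights, and ranged from -0.23 to 0.09 with single arrays left out (0.09, 0.06 and 0.08 without NEXN-WT replicate 2, NEXN-WT replicate 3 and NEXN-S437E replicate 3). Igfbp5 turned to 0.14 with slide row as a block, where NEXN-S437E replicate 1 alone stands against the NEXN-WT arrays. For both genes the slide row values cannot tell this array from slide position. The cause of the other Igf2 shifts was not tested.

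The number of IGF genes past the 2-fold rule was 1, and 1 to 2 with single arrays left out. The number past an adjusted p of 0.05 was 1, and 0 to 1 with single arrays left out. It became 0 without a filter on dim probes, with the methods' t-test and with slide row as a block. With array weights it was 2, where 2098 of all tested probes passed. At an unadjusted p below 0.05 there were 6 lead probes by limma, 5 with quantile normalization or the deposited values, 4 with the percentile over all probes, normexp, no filter or slide row as a block, 3 by the methods' t-test, and 4 to 5 with single arrays left out. The wider axis count of 1 became 2 with quantile normalization or the deposited values, 0 with normexp, the methods' t-test or slide row as a block, and 1 to 2 with single arrays left out.

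Over all tested probes, the 468 lower and 122 higher by the 2-fold rule became 146 and 30 with normexp, 740 and 1208 without a filter, and 282 and 72 with detection required on all 6 arrays, and ranged from 295 to 810 and from 90 to 233 with single arrays left out. The share of higher calls was 20.7%, and 62.0% without a filter, where the dimmest probes enter. The median over probes moved from 0.01 to 0.12 with normexp, so differences there are to be read against that shift, and to 0.20 without a filter. The 34 probes past an adjusted p of 0.05 became 6 without a filter, 18 with detection on all 6 arrays, 2098 with array weights, and 0 with the methods' t-test or slide row as a block (3121 and 2318 at an unadjusted p below 0.05), and 7 to 128 with single arrays left out.

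Replicate numbers did not pair the samples: the deviations of same-numbered arrays from their group means correlated at -0.15, -0.03 and -0.18. With the replicate number as a replicate block, 12 tested probes and 0 IGF genes passed an adjusted p of 0.05 (4 lead probes at an unadjusted one), Igfbp6 stayed at -1.35 (limma adjusted p = 0.0993), and 473 probes were lower and 124 higher by the 2-fold rule.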
